A study of Mus musculus with 9 samples.

Results

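The hypoxia-response genes described here are 10 transcripts that were picked by name for their place in the cellular answer to low oxygen. They are Hif1a, Egln3, Ankrd37, Vegfa, Adm, Slc2a1, Pfkfb3, Slc16a3, P4ha1 and Ndrg1. Each matched exactly 1 of the 59445 features in the deposited RNA sequencing table. The libraries came from F4/80+ CD11b+ macrophages that had been sorted from livers. The mice were C57BL/6 males that had received CCl4 once by intraperitoneal injection 24 hours earlier, at 0.6 mg/kg as labelled. CCl4 is carbon tetrachloride, a hepatotoxin that kills hepatocytes around the central veins. The genotype of the mice was MAGL Mye-/- (5 libraries, S8 to S12) or MAGL fl/fl (4 libraries, S1, S3, S4 and S5, which the labels also call WT). MAGL is monoacylglycerol lipase, encoded by Mgll, and every mouse of both groups received CCl4, and no uninjured group is analysed here. The fl/fl mice were all 11 weeks old, and of the Mye-/- mice 3 (S9, S10 and S11) were 10 weeks old and 2 (S8 and S12) were 11 weeks old. The Cre driver behind the myeloid deletion is not given in the sources used here. Nothing in the labels says whether each library came from 1 mouse, so the p-values measure the spread between these libraries.

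Cells sense oxygen through HIF, a transcription factor made of an oxygen-labile alpha subunit, such as the product of Hif1a, and a constant partner, ARNT. When oxygen is plentiful, prolyl hydroxylases of the EGLN family mark the alpha subunit, the VHL ubiquitin ligase binds it and it is destroyed. When oxygen is scarce the alpha subunit lasts, pairs with ARNT and binds the hypoxia response element, whose core is ACGTG or GCGTG, near target genes. In macrophages the same factor is also raised by inflammatory signals, and its targets move cells towards glycolysis, export of lactate and release of vascular growth factors. Because the protein is controlled by its breakdown, the Hif1a transcript need not follow the activity of the factor.

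The libraries held 33383559 to 46489349 reads, and 14240 to 16802 features had at least 1 read. Reads of the mitochondrial chromosome made up 3.49% to 9.45% of each library. The sorted cells carried the transcripts of their surface markers. Adgre1, which encodes F4/80, was at 4685 to 7801 normalized reads, and Itgam, which encodes CD11b, was at 41570.4 to 55474. Mgll, the targeted gene, was at 18.6, 0, 106 and 22.8 normalized reads in fl/fl and 30.4, 46.6, 5.93, 42.7 and 0 in Mye-/-. It was low but detected in most libraries of both groups, and the groups overlapped (exact permutation p = 0.905, two-sided). A lower Mgll level in Mye-/- was therefore not shown, and Mgll did not check the labels.

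The RefSeq start sites of the genes were searched for the hypoxia response element core, because all of these genes are held to be HIF targets or, for Hif1a, the factor itself. The RefSeq table (GRCm38.p6, the assembly of mm10) gave 11 start sites for 9 of the 10 genes and none for Ndrg1. In the 250 bases before the start, ACGTG or GCGTG on either strand was present at 10 of the 11 start sites and before at least 1 start of all 9 genes. Of all 32851 RefSeq windows of that length, 38.6% held one of them, 16.6% held ACGTG and 28.2% held GCGTG. These windows were rich in CpG, with a median of 14 CpG dinucleotides against 6 over all windows, and both cores contain a CpG. An ACGTG core that lies in CACGTG, the E-box, reads the same on both strands and is matched on each. The 250 bases before the start are shown for Egln3 and Slc16a3, whose levels varied together most closely, and for Hif1a, Pfkfb3, P4ha1 and Ankrd37 as examples of how many cores a window held and where. They are written in the direction of transcription, with the base just before the start at the end, and capitals mark the cores.
Egln3: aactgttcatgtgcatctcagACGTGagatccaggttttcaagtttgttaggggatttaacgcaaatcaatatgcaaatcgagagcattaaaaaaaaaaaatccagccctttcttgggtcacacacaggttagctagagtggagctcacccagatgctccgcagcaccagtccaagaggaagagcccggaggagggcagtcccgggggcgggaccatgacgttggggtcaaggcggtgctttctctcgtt
Slc16a3: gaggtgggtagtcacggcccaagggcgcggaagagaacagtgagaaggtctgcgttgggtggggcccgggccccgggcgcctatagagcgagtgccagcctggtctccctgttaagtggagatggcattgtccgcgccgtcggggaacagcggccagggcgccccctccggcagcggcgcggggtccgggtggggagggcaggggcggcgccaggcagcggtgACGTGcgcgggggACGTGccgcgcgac
Hif1a: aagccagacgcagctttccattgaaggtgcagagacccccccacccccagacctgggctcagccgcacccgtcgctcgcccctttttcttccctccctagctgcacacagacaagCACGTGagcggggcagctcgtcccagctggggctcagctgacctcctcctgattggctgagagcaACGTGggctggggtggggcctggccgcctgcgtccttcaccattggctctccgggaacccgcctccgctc
Pfkfb3: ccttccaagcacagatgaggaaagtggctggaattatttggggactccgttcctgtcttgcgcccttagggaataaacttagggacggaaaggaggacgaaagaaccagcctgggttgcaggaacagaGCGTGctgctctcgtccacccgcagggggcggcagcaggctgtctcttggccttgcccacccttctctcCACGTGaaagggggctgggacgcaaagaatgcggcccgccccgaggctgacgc
P4ha1: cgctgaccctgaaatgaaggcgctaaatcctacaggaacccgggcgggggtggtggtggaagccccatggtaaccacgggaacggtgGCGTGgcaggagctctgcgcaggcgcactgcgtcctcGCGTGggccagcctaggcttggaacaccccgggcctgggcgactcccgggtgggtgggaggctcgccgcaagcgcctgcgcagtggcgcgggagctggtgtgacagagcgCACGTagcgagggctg
Ankrd37: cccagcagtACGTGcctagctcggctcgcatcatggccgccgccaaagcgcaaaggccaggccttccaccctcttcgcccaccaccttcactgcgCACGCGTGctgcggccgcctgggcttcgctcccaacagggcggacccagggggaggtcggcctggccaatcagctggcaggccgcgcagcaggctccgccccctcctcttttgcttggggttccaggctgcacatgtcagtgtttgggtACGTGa

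These windows lie at chr12:54203875-54204124 (minus strand), chr11:120948817-120949066 (plus), chr12:73907617-73907866 (plus), chr2:11502091-11502340 (minus, the inner of the pair of Pfkfb3 starts), chr10:59323046-59323295 (plus) and chr8:45999851-46000100 (minus). Egln3 held a single core, 229 to 225 bases before the start, whereas both cores of Slc16a3 lay in the last 27 bases. The window of Hif1a held an E-box and a separate ACGTG, and that of Ankrd37 held ACGTG at both ends and a palindromic pair of GCGTG cores between them. The outer start of Vegfa had no core in this window, and its inner window, most of which lies in an annotated exon, had 2. Annotated exons of the hypoxia-response genes, the only exons counted, also covered 148 of the 250 bases before the outer Pfkfb3 start and 11 before the inner one. They covered 34 bases for Slc2a1, 17 for Ankrd37 and 14 for Slc16a3. Which cores lie in those bases was not determined. Adm had 2 GCGTG cores and Slc2a1 had 1 core of each kind. A match is a run of letters and does not show that HIF binds there, and no match says only that the letters are not in this window.

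**Figure D1:**
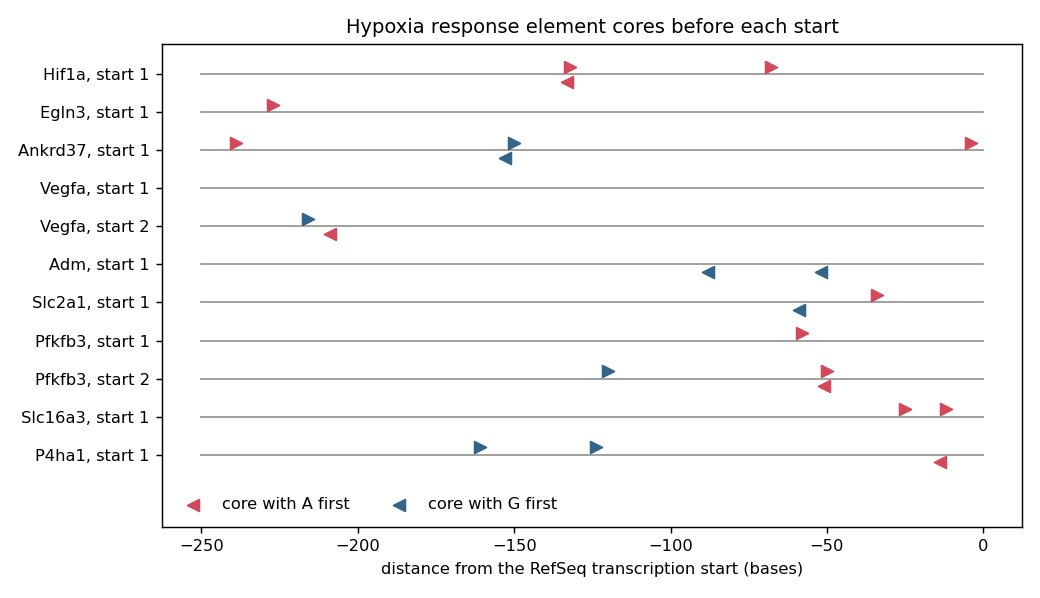
Positions of the hypoxia response element core in the 250 bases before each RefSeq start (x axis, bases from the start) for the 9 genes with a start in the table. Triangles pointing right and left are matches on the coding and the opposite strand, red for ACGTG and blue for GCGTG, and only the outer Vegfa start has none.

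The genes were expressed at very different levels, and Adm was close to absent. Levels of different genes were compared after dividing by the summed length of the exons of GENCODE M21 coding transcripts, as normalized reads per kilobase (mean ± SD over all 9 libraries). Vegfa was highest at 2974 ± 1141, followed by Slc16a3 at 2059.7 ± 325, Slc2a1 at 1656 ± 475, Hif1a at 1325 ± 317 and P4ha1 at 1270.4 ± 245. Ankrd37 followed at 1007 ± 177, and Pfkfb3, Egln3 and Ndrg1 were lowest at 439.8 ± 153, 432 ± 186 and 338 ± 100.2. Each gene's range over the libraries overlapped that of the next in this order, except between Ankrd37 (774 to 1333) and Pfkfb3 (216 to 620.5). Ankrd37 did overlap Egln3 (229 to 845), the gene after Pfkfb3 in this order. Genes further apart in the order were separated in some pairs, such as Slc16a3 (1552 to 2580.1) and Ankrd37.

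Adm (GSMG0035027, chr7:110627655-110629820, mm10, plus strand) encodes adrenomedullin, a vasodilator peptide and a classical hypoxia-induced transcript of macrophages. It had 0 reads in all 4 fl/fl libraries and in 4 of the 5 Mye-/- libraries, and 44 reads in Mye-/- S11, which make 47.0 normalized reads. A count of 0 was taken to allow up to 3 reads, or 2.41 to 3.58 normalized reads depending on the library. The exact Poisson 95% interval is 0 to 3.69 reads for a count of 0 and 32.0 to 59.1 for the 44 reads. These limits cover counting error only. Adm did not pass the filter of at least 10 normalized reads in at least 4 libraries and was not tested. Its receptor is made of Calcrl with Ramp2 or Ramp3. Calcrl was at 194 ± 124 for fl/fl (n = 4, SD) against 180.2 ± 70.9 for Mye-/- (n = 5, SD). Ramp3 was at 1129, 246, 26.2 and 63.3 normalized reads in the fl/fl libraries (S1, S3, S4, S5 in turn), and 327, 446, 263, 242 and 391 in the Mye-/- libraries (S8, S9, S10, S11, S12 in turn), with the highest and the lowest values both in fl/fl (limma adjusted p = 0.630). Ramp2, named after its values were seen, was at 0 in 7 libraries, at 15.8 in fl/fl S5 and at 54.5 in Mye-/- S11. Ramp1, which joins Calcrl in the receptor of another peptide, CGRP, was at 2507 ± 766 for fl/fl (n = 4, SD) against 2092 ± 396 for Mye-/- (n = 5, SD), and Pam, which amidates peptide hormones, was at 417 ± 136 for fl/fl (n = 4, SD) against 388 ± 116 for Mye-/- (n = 5, SD). Of the 7 genes of the adrenomedullin system 4 were tested and 0 passed in either direction (smallest limma adjusted p = 0.630, 0 at an unadjusted p under 0.05).

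The central comparison asked whether loss of myeloid MAGL changed these transcripts during acute liver injury. Of the 9 genes that passed the filter 0 passed the test (limma, Benjamini-Hochberg adjusted over 15288 features, smallest adjusted p = 0.332), where 0.0196% of all features tested did. On the whole reads edgeR called 0 of them (0.0131% of all features) and DESeq2 called 0 (0.805% of all features). At an unadjusted p under 0.05 there were 2, Pfkfb3 and Vegfa, both higher in Mye-/-, where 6.38% of all features were higher at that level. Of the 9 genes 5 had a higher and 4 a lower mean log2 value in Mye-/- (higher in 54.6% of all features tested), and their median log2 fold change was 0.01 against 0.06 over all features tested. The values of the groups overlapped in all 9, whereas 3.3% of all features tested showed no overlap. Log2 fold changes here are Mye-/- minus fl/fl on the log2(normalized value + 1) scale. In these sorts, fewer cells with a transcript and less of it per cell cannot be told apart.

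**Figure D2:**
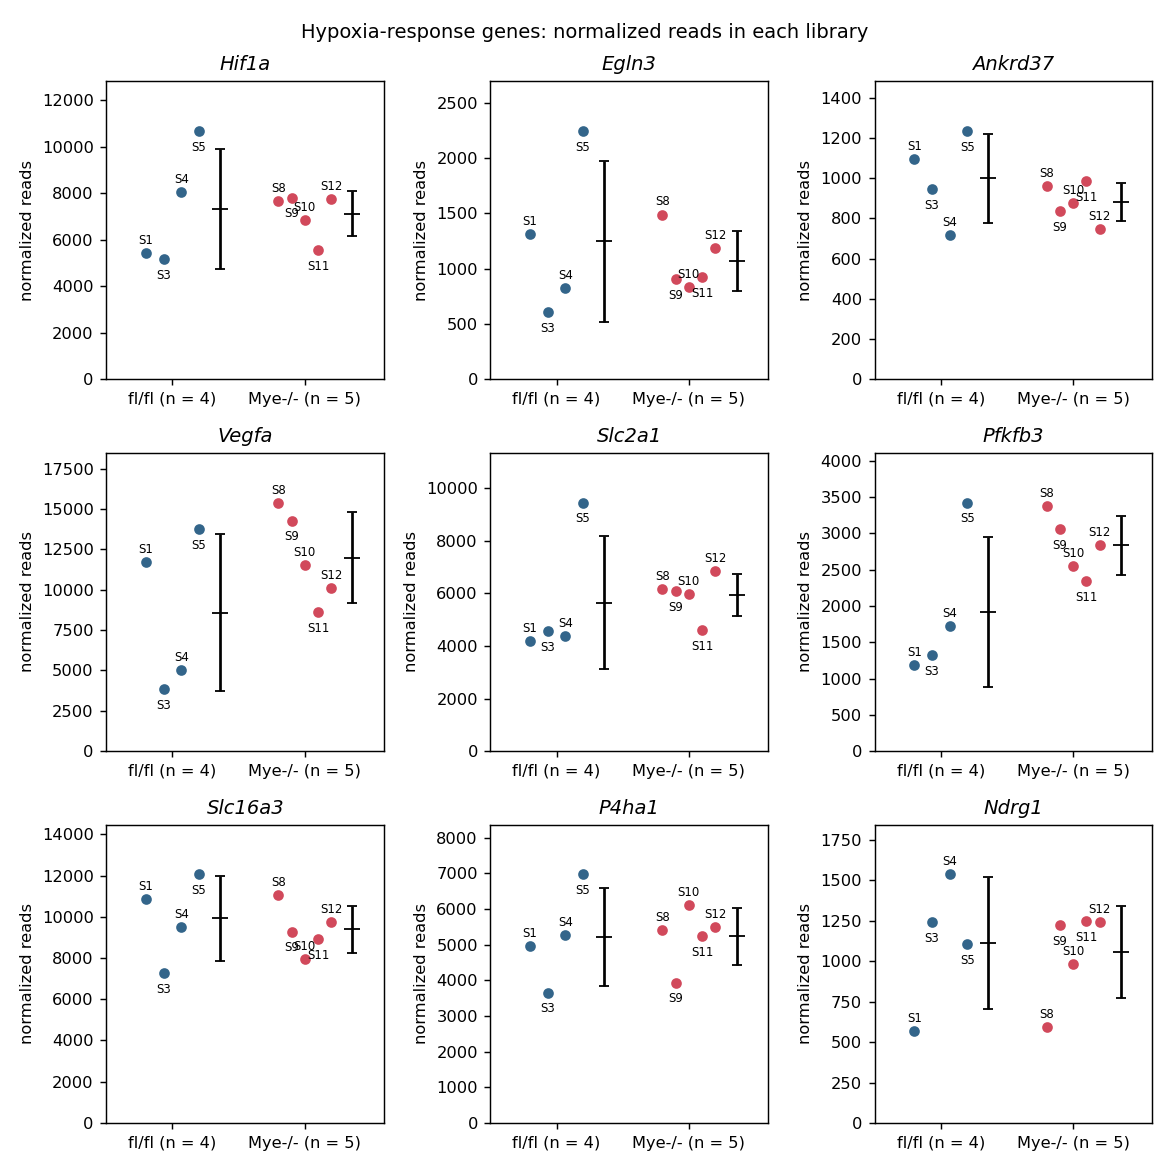
Normalized reads (y axis, starting at 0) of the 9 tested genes in each fl/fl and Mye-/- library, with the mean and SD of each group in black. Library S5 is the highest of all 9 in 7 panels, and the fl/fl values spread more widely than the Mye-/- values in every panel.

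Hif1a (GSMG0008186, chr12:73901324-73947554, plus strand), the alpha subunit of the factor, was at 5430.3, 5181, 8042 and 10692 normalized reads in the fl/fl libraries (S1, S3, S4, S5 in turn), and 7650.4, 7816, 6849, 5542 and 7741 in the Mye-/- libraries (S8, S9, S10, S11, S12 in turn). Library S5 was highest and S3 and S1 lowest, and all 5 Mye-/- values lay inside the fl/fl range. The group means were 7336 ± 2585 for fl/fl (n = 4, SD) against 7119.6 ± 964 for Mye-/- (n = 5, SD), with a log2 fold change of 0.01 ± 0.19 (SE) and a 95% interval of -0.39 to 0.41 (limma adjusted p = 0.992). The interval corresponds to 0.766 to 1.32 times the fl/fl level. The sign of the difference varied with the controls used. It was -0.39 when fl/fl S1 and S3 were both left out (adjusted p = 0.501) and 0.21 without fl/fl S5.

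Egln3 (GSMG0008875, chr12:54178982-54203875, minus strand) encodes PHD3, a HIF prolyl hydroxylase that is itself induced by HIF and so closes a feedback loop. It was at 1314, 610.1, 828 and 2248 normalized reads in the fl/fl libraries (S1, S3, S4, S5 in turn), and 1491, 910.2, 833, 922 and 1191 in the Mye-/- libraries (S8, S9, S10, S11, S12 in turn). This was the gene with the widest spread among controls, where S5 was 3.68 times S3, against 1.79 times between the extremes of Mye-/-. The means were 1250.1 ± 727 for fl/fl (n = 4, SD) against 1069 ± 272 for Mye-/- (n = 5, SD) (log2 fold change -0.08 ± 0.31 (SE), limma adjusted p = 0.948). Without fl/fl S5 the log2 fold change was 0.26. Ankrd37 (GSMG0038366, chr8:45996910-45999868, minus strand), an ankyrin repeat protein known as a HIF target, ranged from 718 to 1236 in fl/fl and from 746 to 985 in Mye-/-. All 5 Mye-/- values were below the fl/fl median of 1021, yet inside the fl/fl range, and the difference of -0.16 ± 0.22 (SE) did not pass (limma adjusted p = 0.835). The Ankrd37 feature overlaps the end of Ufsp2 and the start of Lrp2bp, and since no strand setting is given, reads of the overlap cannot be separated.

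Vegfa (GSMG0017585, chr17:46016996-46032377, minus strand), the growth factor that drives new blood vessels, was at 11723, 3858, 5017 and 13749.6 normalized reads in the fl/fl libraries (S1, S3, S4, S5 in turn), and 15402, 14283, 11532, 8620.4 and 10118 in the Mye-/- libraries (S8, S9, S10, S11, S12 in turn). Fl/fl S3 and S4 lay below every Mye-/- library, and fl/fl S1 and S5 lay within the Mye-/- range. All 5 Mye-/- values were above the fl/fl median of 8370.2. The means were 8587 ± 4885 for fl/fl (n = 4, SD) against 11991 ± 2827 for Mye-/- (n = 5, SD), with a log2 fold change of 0.65 ± 0.29 (SE), a 95% interval of 0.04 to 1.26 and a limma adjusted p = 0.450 (exact permutation p = 0.206, two-sided, or 0.929 after adjustment for the 9 genes). The difference was 0.33 without fl/fl S3 and 0.94 without fl/fl S5, and passed in neither (adjusted p = 0.672 and 0.153). A feature without a symbol, GSMG0065056, covers the same interval as Vegfa and was at 66.7 on average in fl/fl and 178 in Mye-/-, and how reads were split between the features is not given in the sources used here.

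The other VEGF ligands and receptors were also measured. Vegfb, a related ligand, was at 86.5 ± 47.2 for fl/fl (n = 4, SD) against 161 ± 76.5 for Mye-/- (n = 5, SD). The receptor Flt1 averaged 234 in fl/fl and 229 in Mye-/-, and the co-receptor Nrp2 averaged 202 and 140.3. Of 8 tested genes of the family 0 passed (limma), 6 had a higher and 2 a lower mean log2 value, and Vegfa was the 1 with an unadjusted p under 0.05 (higher in 6.38% of all features). Their median log2 fold change was 0.49 against 0.06 over all features. It lay between those of Flt4 and Vegfc, which were at 0 in 2 and 4 libraries and had SEs of 1.68 and 1.96. Flt1, Kdr and Flt4 had a higher mean log2 value in Mye-/- but a lower mean. For Flt1 the log2 fold change was 0.73 ± 0.72 (SE), with fl/fl values from 25.5 (S1) to 555 (S3). Kdr averaged 123 in fl/fl and 67.9 in Mye-/-, and Flt4 averaged 71.4 and 58.3. Flt4, Vegfc and Kdr were named after their values were seen.

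Glucose import, the control of glycolysis and lactate export are served by Slc2a1, Pfkfb3 and Slc16a3. Slc2a1 (GSMG0026997, chr4:119108745-119137330, plus strand) encodes GLUT1, the basal glucose transporter. It was at 4201, 4562, 4372 and 9450.2 normalized reads in the fl/fl libraries (S1, S3, S4, S5 in turn), and 6149, 6090.4, 5959.7, 4614 and 6849.9 in the Mye-/- libraries (S8, S9, S10, S11, S12 in turn). The fl/fl library S5 stood apart above all others, while the other 3 fl/fl values lay below the lowest Mye-/- value, that of S11. The means were 5646 ± 2540.1 for fl/fl (n = 4, SD) against 5932 ± 814 for Mye-/- (n = 5, SD) (log2 fold change 0.15 ± 0.20 (SE), limma adjusted p = 0.827), and without fl/fl S5 the log2 fold change was 0.43 (adjusted p = 0.254). A feature without a symbol inside a Slc2a1 intron, GSMG0067822, was at 440.4 on average in fl/fl and 748 in Mye-/- (limma adjusted p = 0.453). Among the other facilitative glucose transporters Slc2a6, a lysosomal transporter of macrophages, was at 4279 ± 591 for fl/fl (n = 4, SD) against 3601 ± 262 for Mye-/- (n = 5, SD) (limma adjusted p = 0.558). Slc2a6 was the 1 of 5 tested with a lower mean log2 value in Mye-/-, and 4, Slc2a1 among them, had a higher one. The log2 fold change was 0.97 ± 0.76 (SE) for Slc2a3 and 1.89 ± 1.32 (SE) for Slc2a9, both expressed at low levels. Of the 5 tested 0 passed, with 0 at an unadjusted p under 0.05.

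Pfkfb3 (GSMG0022413, chr2:11471433-11554077, minus strand) makes fructose 2,6-bisphosphate, the strongest activator of the committed step of glycolysis. It was at 1193, 1321, 1731 and 3426 normalized reads in the fl/fl libraries (S1, S3, S4, S5 in turn), and 3385, 3058, 2558, 2344 and 2842 in the Mye-/- libraries (S8, S9, S10, S11, S12 in turn). In fl/fl S1, S3 and S4 it lay below every Mye-/- library, and in fl/fl S5 it lay above them all. This gave the largest difference of the set, a log2 fold change of 0.69 ± 0.24 (SE) with a 95% interval of 0.18 to 1.19, which did not pass over all features (limma adjusted p = 0.332, exact permutation p = 0.0794, two-sided, or 0.714 after adjustment for the 9 genes). The result depended on which controls entered. Without fl/fl S5 the log2 fold change was 1.01 and passed (adjusted p = 0.0409), and leaving out both fl/fl S1 and S3 gave 0.21 (adjusted p = 0.823). Pfkfb4, the other hypoxia-inducible member of the family, was at 511, 459.7, 1085 and 941 normalized reads in the fl/fl libraries (S1, S3, S4, S5 in turn), and 993, 1791, 1415, 1262 and 1362 in the Mye-/- libraries (S8, S9, S10, S11, S12 in turn), a log2 fold change of 0.94 ± 0.27 (SE) (limma adjusted p = 0.256). Fl/fl S4 lay within the Mye-/- range, the other 3 fl/fl libraries lay below it, and the highest library was Mye-/- S9 rather than fl/fl S5. Pfkfb2 was at 206 ± 55.2 for fl/fl (n = 4, SD) against 329 ± 103 for Mye-/- (n = 5, SD), on a feature shared with C4bp-ps1, and Pfkfb1 averaged 45.2 in fl/fl and 27.9 in Mye-/-. Of the 4 PFKFB genes 0 passed and 2, Pfkfb3 and Pfkfb4, were higher at an unadjusted p under 0.05, against 6.38% of all features.

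Slc16a3 (GSMG0006232, chr11:120948484-120960868, plus strand) encodes MCT4, which exports the lactate of glycolytic cells. It was at 10847, 7253, 9515 and 12057 normalized reads in the fl/fl libraries (S1, S3, S4, S5 in turn), and 11035, 9278, 7965, 8928 and 9747 in the Mye-/- libraries (S8, S9, S10, S11, S12 in turn). All 5 Mye-/- values lay inside the fl/fl range, with fl/fl S5 highest and fl/fl S3 lowest. The means were 9918 ± 2057 for fl/fl (n = 4, SD) against 9391 ± 1128 for Mye-/- (n = 5, SD) (log2 fold change -0.06 ± 0.15 (SE), 95% interval -0.38 to 0.26, limma adjusted p = 0.913), the narrowest interval of the 9 genes. The 3′ end of the feature overlaps Csnk1d. Bsg, the chaperone that carries MCT4 to the membrane, was at 13077 ± 2339.6 for fl/fl (n = 4, SD) against 10765 ± 1159.9 for Mye-/- (n = 5, SD) (limma adjusted p = 0.523). Slc16a1, which encodes the related transporter MCT1, was at 825 ± 216 for fl/fl (n = 4, SD) against 635 ± 179 for Mye-/- (n = 5, SD) (limma adjusted p = 0.647). Slc16a6, another gene of the family, went the other way, at 1561 ± 566 for fl/fl (n = 4, SD) against 2076 ± 694 for Mye-/- (n = 5, SD) (limma adjusted p = 0.595). Of 6 tested monocarboxylate transporter genes and basigin 2 had a higher and 4 a lower mean log2 value in Mye-/-. With limma 0 of them passed, and 0 had an unadjusted p under 0.05.

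P4ha1 and Ndrg1 complete the set. P4ha1 (GSMG0003034, chr10:59323296-59373303, plus strand), the catalytic subunit of the enzyme that hydroxylates prolines of collagen, was at 3656 to 6970.1 in fl/fl and 3937 to 6117 in Mye-/-, with means of 5212 and 5237 and a log2 fold change of 0.03 ± 0.17 (SE) (limma adjusted p = 0.970). P4hb, the other subunit of that enzyme and a disulfide isomerase in its own right, was at 34330.2 ± 6734 for fl/fl (n = 4, SD) against 28203 ± 3587 for Mye-/- (n = 5, SD) (limma adjusted p = 0.548). Ndrg1 (GSMG0014070, chr15:66929318-66969644, minus strand), a stress-responsive protein of the NDRG family, was ordered differently across libraries. It was at 566, 1245, 1538 and 1105 normalized reads in the fl/fl libraries (S1, S3, S4, S5 in turn), and 592, 1226, 986, 1249.8 and 1244 in the Mye-/- libraries (S8, S9, S10, S11, S12 in turn). Fl/fl S1 and Mye-/- S8 lay well below the other 7 libraries, and S4 rather than S5 was highest. The difference did not pass (log2 fold change -0.03 ± 0.29 (SE), limma adjusted p = 0.979), and of the NDRG family 0 of 3 tested passed, with 0 at an unadjusted p under 0.05.

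**Figure D3:**
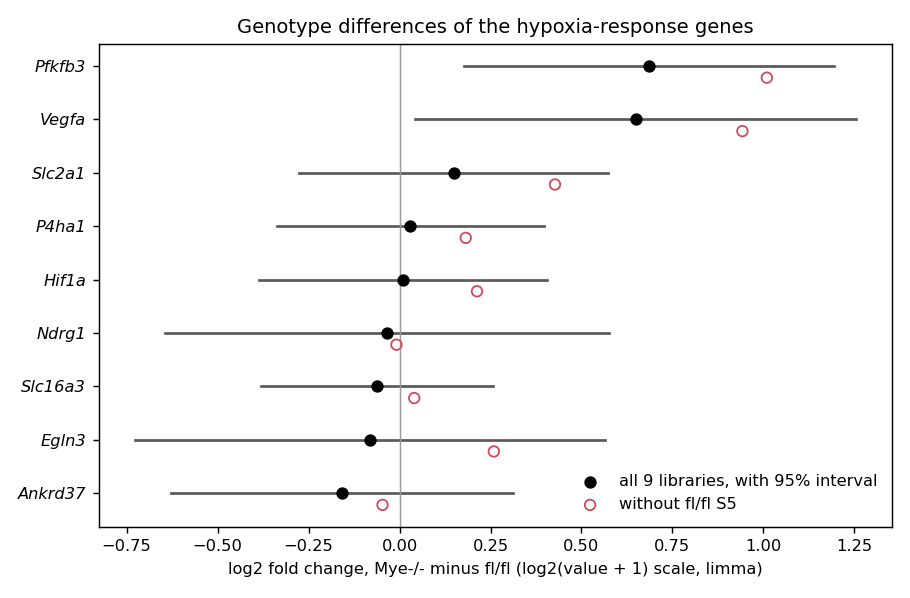
Log2 fold changes of the 9 tested genes (x axis, Mye-/- minus fl/fl) with 95% intervals from limma over all 9 libraries (black) and the value without fl/fl S5 (open red circles). Only the intervals of Pfkfb3 and Vegfa lie above 0 before adjustment, and every red circle lies to the right of its black point.

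Across libraries, 1 control library held most of the highest values. Library fl/fl S5 had the highest value of all 9 libraries in 7 of the 9 genes (Hif1a, Egln3, Ankrd37, Slc2a1, Pfkfb3, Slc16a3 and P4ha1), where 7.71% of all features tested had their highest value in S5. Vegfa was highest in Mye-/- S8 and Ndrg1 in fl/fl S4, the libraries with the highest value of 9.43% and 12.6% of all features. The lowest value fell in fl/fl S3 in 5 genes, in fl/fl S1 in 3 and in fl/fl S4 in 1, and in a Mye-/- library in 0. The share of all features with their lowest value in each library was not counted, so these lowest values have no background beside them. The coefficient of variation was larger in fl/fl than in Mye-/- in 9 of the 9 genes, against 65.1% of all features tested, and ran from 20.7% (Slc16a3) to 58.2% (Egln3) in fl/fl and from 10.9% (Ankrd37) to 26.8% (Ndrg1) in Mye-/-. These shares are descriptions and were not tested. S5 had 43884866 reads, 16385 features detected and 6.71% mitochondrial reads, all inside the range of the other libraries.

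The same library was high for some, but not all, lists of related genes. Of 32 other HIF target genes tested, 14 (43.8%) had their highest value in fl/fl S5, as did 7 of 17 glycolytic enzymes. The remaining lists, which also hold genes of the set, were mixed. S5 was highest for 3 of 6 monocarboxylate transporter genes and basigin, 2 of 5 glucose transporters, 1 of 4 PFKFB genes and 1 of 5 hydroxylase subunits. It was highest for 3 of 24 HIF subunits and oxygen-sensing regulators. For 8 VEGF, 4 adrenomedullin and 3 NDRG genes the number was 0. Bnip3, a mitophagy receptor, was at 5927 in S5 and at 1999 to 3853 elsewhere. Ero1a, an oxidase of the endoplasmic reticulum, was at 4803 in S5 and at 1494 to 3105 elsewhere. Both were named after their values were seen. Fl/fl S1 shared the high glycolytic values, being the highest library for 7 of the 17 enzymes (and of 18.0% of all features tested), but was lowest for Slc2a1, Pfkfb3 and Ndrg1.

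Markers of other cells in the sort were set beside this pattern. The summed level of 8 macrophage markers was 484060.0 to 618796 normalized reads in fl/fl and 345377 to 444455 in Mye-/-, with 531380.0 in S5. The largest part was Lyz2, lysozyme, at 308919 ± 83367 for fl/fl (n = 4, SD) against 169027 ± 24893 for Mye-/- (n = 5, SD) (limma adjusted p = 0.218), whereas 6 of the 8 markers had a higher mean log2 value in Mye-/- and 2 a lower one. The summed level of 10 neutrophil markers was 30354 to 52784 in fl/fl and 20311 to 43149.6 in Mye-/-, and S5, at 52784, was close to S3, at 52764, the library with the lowest Hif1a, Egln3 and Vegfa. Most of that sum was S100a8, which monocytes also carry, and the neutrophil surface marker Ly6g was at 0 in 8 of 9 libraries and at 1.19 in S3. Other members of the list were detected in all 9 libraries: Csf3r at 2211 to 5439, Mmp8 at 2688 to 7405 and S100a9 at 1375 to 7947. Retnlg, Cxcr2, Mpo, Elane and Camp were at 0 in 3, 4, 4, 5 and 7 libraries. The sum of 12 hepatocyte markers was 711 to 1934 in fl/fl and 1361 to 12124 in Mye-/-, S10 being highest, with 1067 in S5. The sum of 10 Kupffer cell markers was 11673 to 22552 in fl/fl and 22675 to 33399 in Mye-/-, mostly Id3. Clec4f, the lectin that defines Kupffer cells, was at 0 in fl/fl S1, S3 and S4 and at 73.8 in S5, against 33.3 to 603 in Mye-/-. The sums of 7 erythroid markers, mostly globin, were 4373 to 25837 in fl/fl and 1939 to 4645 in Mye-/-, S3 being highest. Endothelial, stellate cell and lymphocyte sums were 3658 to 6282 (mostly Fcgr2b, which macrophages carry too), 2672 to 4815 (mostly Ecm1) and 18.3 to 553 over all libraries. Of these lists Stab2, Cd79a and Ms4a1 were at 0 in 8 libraries each, and Lrat and Reln were at 0 in all 9. Other members were detected at low levels: Clec4g, a sinusoidal lectin, at 19.2 to 229, Kdr at 2.32 to 367 and Pecam1 at 90.7 to 351 in all 9 libraries, and the lymphocyte genes Klrb1c at up to 318 in 8 libraries and Nkg7 at up to 282 in 7. The part of these cells in the hypoxia pattern was not tested.

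**Figure D4:**
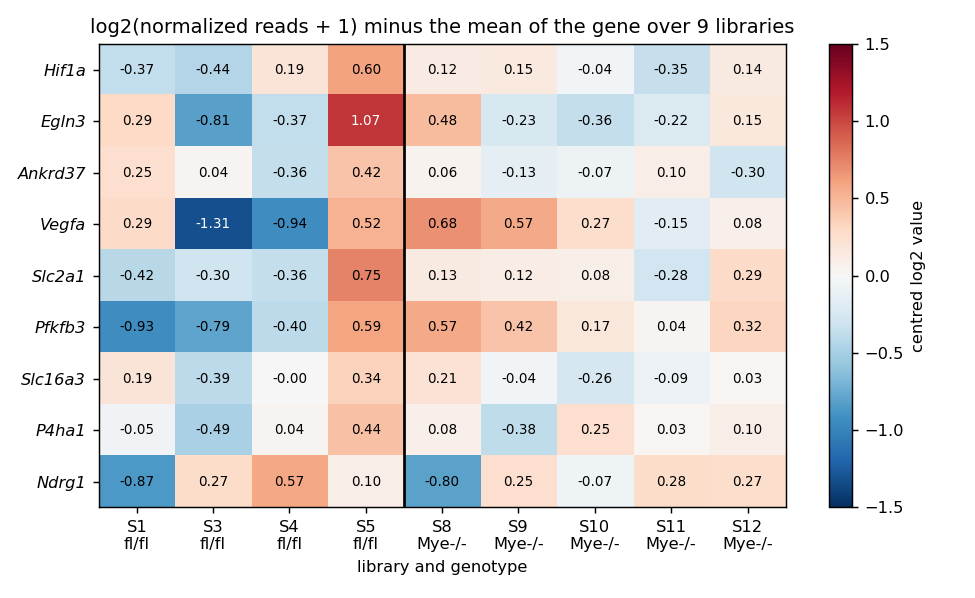
Log2(normalized reads + 1) of each tested gene in each library, after subtracting the mean of that gene over the 9 libraries (colour and number), with fl/fl to the left and Mye-/- to the right of the line. The column of fl/fl S5 is above 0 in all 9 rows, S3 is below 0 in 7, and Ndrg1 follows another order.

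Correlations over the 9 libraries showed which of the genes varied together. Of 36 pairs 30 had a positive Pearson r on the log2 scale, with a median of 0.48, and 1 passed after adjustment over the 36 pairs, while 8 had an unadjusted exact permutation p under 0.05. Egln3 and Slc16a3 were the closest pair (r = 0.93, two-sided exact permutation p = 0.000231, adjusted p = 0.00833). Their Spearman rho was 0.88 (exact permutation p = 0.00308, adjusted p = 0.0554), and r was 0.90 without S5 and S8, the libraries farthest from the Egln3 median. After centring within genotype r was 0.93 and the pair missed the threshold (permutation within genotype, adjusted p = 0.0687). Slc2a1 and Pfkfb3 had r = 0.82 (exact permutation p = 0.00506, adjusted p = 0.0852) and rho = 0.93 (exact permutation p = 0.000750, adjusted p = 0.0270), with r = 0.81 without S1 and S5. This was the only pair to pass by rank.

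Hif1a went more closely with Slc2a1 and Pfkfb3 than with Vegfa in these libraries, although the difference between correlations was not tested. By Pearson r, Hif1a also went more closely with Egln3 (r = 0.63, rho = 0.30), Slc16a3 (r = 0.60, rho = 0.53) and P4ha1 (r = 0.58, rho = 0.55) than with Vegfa. With Slc2a1 it had r = 0.82 (exact permutation p = 0.00710, adjusted p = 0.0852) and rho = 0.57 (exact permutation p = 0.121, adjusted p = 0.319), and r = 0.74 without S1 and S3. With Pfkfb3 it had r = 0.73 (exact permutation p = 0.0245, adjusted p = 0.210) and rho = 0.68 (exact permutation p = 0.0503, adjusted p = 0.302), and r = 0.40 without S1 and S3. After centring within genotype the pair had r = 0.93 (permutation within genotype, p = 0.00382, adjusted p = 0.0687). With Vegfa it had r = 0.44 (exact permutation p = 0.235, adjusted p = 0.338) and rho = 0.35 (exact permutation p = 0.359, adjusted p = 0.516), and r = 0.25 without S1 and S3. Ndrg1 was in 5 of the 6 negative pairs. Its lowest r was with Vegfa, at -0.55 (exact permutation p = 0.0864, adjusted p = 0.243), with rho = -0.75 (exact permutation p = 0.0255, adjusted p = 0.302) and r = -0.42 without S3 and S4. Points of all pairs share the same libraries and their scaling.

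**Figure D5:**
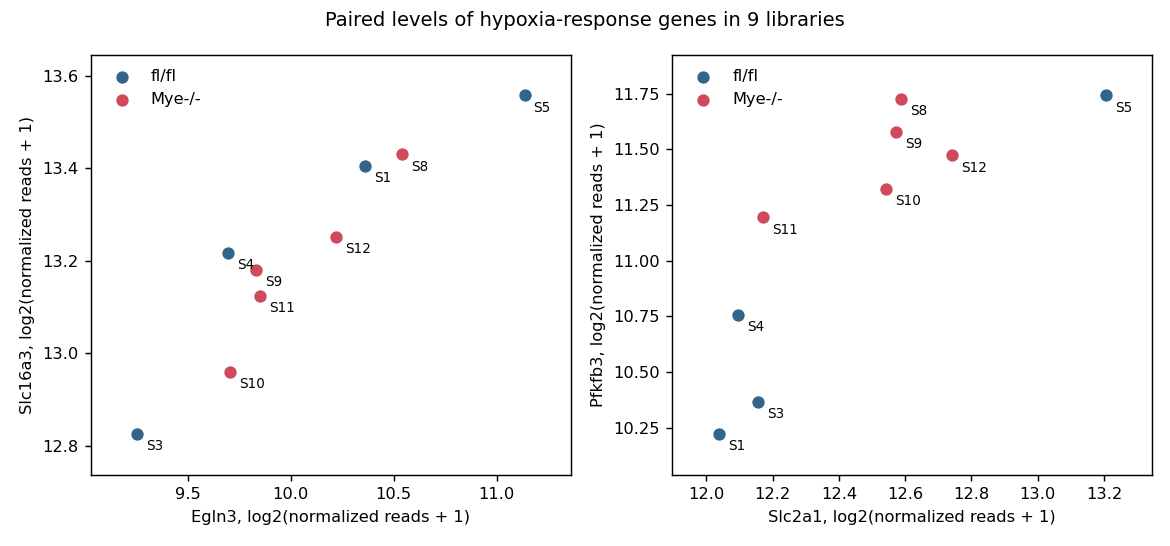
Log2(normalized reads + 1) of Egln3 against Slc16a3 (left) and of Slc2a1 against Pfkfb3 (right) in the 9 libraries, blue for fl/fl and red for Mye-/-. In both panels fl/fl S5 lies at the upper right, and on the right the other 3 fl/fl libraries lie at the lower left.

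Among 6763 named features whose mean was 500 or more, the 2 whose log2 values over the 9 libraries were most like each gene were listed as a description, without a test. For Vegfa they were Skil (r = 0.97, rho = 0.88), a repressor of SMAD signalling, and Smad1 (r = 0.95, rho = 0.78). For Hif1a they were Fbxw11 (r = 0.96, rho = 0.88) and Cdc27 (r = 0.91, rho = 0.83), for Pfkfb3 Gna13 (r = 0.97, rho = 0.92) and Cers6 (r = 0.96, rho = 0.95), and for Slc2a1 Gosr1 (r = 0.95, rho = 0.88) and Fam63b (r = 0.94, rho = 0.93). Slc16a3 was closest to Mif (r = 0.94, rho = 0.85), itself a HIF target that encodes a macrophage cytokine, and then to Egln3. Egln3 was closest to Seh1l (r = 0.94, rho = 0.93) and then to Slc16a3. For P4ha1 they were Fth1 (r = 0.90, rho = 0.93) and Avpi1 (r = 0.90, rho = 0.87), Fth1 being the ferritin heavy chain. For Ankrd37 they were Emc4 (r = 0.90, rho = 0.95) and Srek1ip1 (r = 0.89, rho = 0.90), and for Ndrg1 Poglut1 (r = 0.96, rho = 0.92) and Dennd6a (r = 0.96, rho = 0.67). These are the highest values of r among all the candidates, over 9 libraries that share their scaling.

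The wider pathway was measured on lists chosen by function. Of 24 tested HIF subunits and oxygen-sensing regulators (Hif1a and Egln3 among them) 0 passed in either direction with limma. In Mye-/- 12 had a higher and 12 a lower mean log2 value. At an unadjusted p under 0.05, 2 were lower and 0 higher, where 4.13% of all features were lower at that level. Egln1, which encodes PHD2, the main oxygen sensor, was at 4908, 2894, 4307 and 4633 normalized reads in the fl/fl libraries (S1, S3, S4, S5 in turn), and 2596, 2519, 2516, 2973 and 3502 in the Mye-/- libraries (S8, S9, S10, S11, S12 in turn). The 3 highest values were all fl/fl, and fl/fl S3 lay among the Mye-/- values (log2 fold change -0.55 ± 0.17 (SE), limma adjusted p = 0.289). Elob, listed as Tceb2, is the elongin B subunit of the VHL ligase. It was at 5011, 4989.6, 4466 and 4217 normalized reads in the fl/fl libraries (S1, S3, S4, S5 in turn), and 3343, 3445, 2915, 3512 and 3702 in the Mye-/- libraries (S8, S9, S10, S11, S12 in turn). The groups did not overlap, as in 3.3% of all features tested (log2 fold change -0.47 ± 0.14 (SE), limma adjusted p = 0.256), and DESeq2 called it as lower (adjusted p = 0.0320). Egln2 and Crebbp, a coactivator of HIF, were at 1386 and 2568 in fl/fl and 1747 and 3272 in Mye-/- (limma adjusted p = 0.539 and 0.491). Epas1, named after its values were seen because it encodes the other main HIF alpha subunit, was at 229.5 ± 83.0 for fl/fl (n = 4, SD) against 237 ± 112 for Mye-/- (n = 5, SD).

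Of 32 tested other HIF target genes 0 passed with limma. In Mye-/- 19 had a higher and 13 a lower mean log2 value, and the median log2 fold change was 0.02. At an unadjusted p under 0.05 there were 2 higher and 4 lower, where 6.38% of all features tested were higher and 4.13% lower at that level. Selenbp1, a selenium-binding protein, was at 1598 ± 346 for fl/fl (n = 4, SD) against 961 ± 167 for Mye-/- (n = 5, SD), Anxa2, annexin A2, at 51215 ± 7448 for fl/fl (n = 4, SD) against 37289 ± 4316 for Mye-/- (n = 5, SD), Higd1a, a mitochondrial protein induced by hypoxia, at 2715 ± 882 for fl/fl (n = 4, SD) against 1763 ± 347 for Mye-/- (n = 5, SD), and Narf at 1289 ± 302 for fl/fl (n = 4, SD) against 1872 ± 215 for Mye-/- (n = 5, SD) (limma adjusted p = 0.256, 0.291, 0.348 and 0.322). DESeq2 called Anxa2 as lower (adjusted p = 0.0197). Of 17 glycolytic enzymes 0 passed with limma. In Mye-/- 14 enzymes had a lower and 3 a higher mean log2 value, with a median log2 fold change of -0.24 against 0.06 over all features. Of the 17 enzymes, 3 were lower at an unadjusted p under 0.05 (Hk1, Pgk1 and Eno1), against 4.13% of all features, and DESeq2 called Eno1 (adjusted p = 0.0486). The mean levels of Pfkfb3 and Pfkfb4 were higher in Mye-/- while those of most glycolytic enzymes were lower, and with limma 0 of these differences passed. Of 5 tested prolyl and lysyl hydroxylase subunits 0 passed, with 0 at an unadjusted p under 0.05.

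Age was partly tied to genotype. Among the 11-week-old mice alone (4 fl/fl against Mye-/- S8 and S12) the log2 fold change was 0.83 for Pfkfb3 and 0.74 for Vegfa, and neither passed (limma adjusted p = 0.976 for Pfkfb3 and 0.976 for Vegfa). Without fl/fl S1 and S3, a pair chosen from an earlier analysis of these data, 2 of the 9 genes were higher and 7 lower in Mye-/-, with a median of -0.20. Without fl/fl S5, 7 were higher and 2 lower, with a median of 0.21, so the direction of the set as a whole depended on which controls entered.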

How the data were processed

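RNA sequencing of sorted liver macrophages was analysed in 9 libraries. Per the submitters' processing notes, STAR 2.4.0, SAMtools, Picard, FastQC and DESeq were used with mm10. The read counter, its strand setting and the treatment of duplicates are not given in the sources used here. The deposited table holds a normalized signal per gene on FAST DB gene models with mm10 coordinates, per the file headers. In each library the values are whole multiples of 1 step, the form of counts divided by a size factor. Dividing by that step gave whole reads for 100.0% of values (within 0.01 of a whole number), and totals were 33383559 to 46489349 reads per library. Of the low counts above 0, 66.1% to 68.3% per library were even, and whether both mates of a pair were counted is not given, so counting intervals may be too narrow. No value column was left without a sample.

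Genotypes were compared on log2(value + 1) by limma 3.58.1 under R 4.3.3, allowing for a trend of variance with intensity. The 15288 features that reached 10 in 4 or more libraries entered, and p-values were two-sided and adjusted by Benjamini-Hochberg at 0.05. edgeR 4.0.16 (quasi-likelihood, 2 features called) and DESeq2 1.42.0 (123 called) were run on the whole reads. Exact permutation tests enumerated every regrouping or pairing (numpy 2.4.6), and Poisson limits used scipy 1.17.1. Alternatives were other pseudocounts, filters, scalings, age as a covariate and leaving out libraries.

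Genes named are the 10 hypoxia-response genes, Mgll, Adgre1 and Itgam, genes of each list past the limma threshold or otherwise up to 4 with the smallest p, and the 2 features most correlated with each gene. Cell type markers in the text were not held to that rule: they were named, after their values were seen, for making up most of a sum, for being at 0 or as other members that were detected. The genes and lists were chosen with earlier results of these data known.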

Additional observations from a re-analysis of the deposited data

Results flagged for a closer look

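Slc2a1 in fl/fl had 1 library far from the rest of its group. Library S5 was at 9450.2 normalized reads, and its gap to the next fl/fl library made up most of the range of the group. This was 1 of 18 groups checked (9 genes in 2 genotypes), and chance marks about 1 in 20 such groups.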

How the results depend on the processing

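Under 20 alternatives the number of hypoxia-response genes called stayed at 0 except without fl/fl S5, where Pfkfb3 was called, so leaving out single libraries gave 0 to 1. Among the wider lists 0 to 1 gene was called when single libraries were left out (Pfkfb3 without fl/fl S5), and DESeq2 called 3 (Elob, Eno1 and Anxa2). Over all features limma called 3, against 17 with a pseudocount of 8, 6 with TMM scaling, 8 with quantile normalization, 0 with age as a covariate, 0 in 11-week-old mice, 9 without fl/fl S1 and S3, 123 with DESeq2 and 0 to 20 when single libraries were left out. The number of correlated pairs was 1, fell to 0 after centring within genotype and was 1 to 3 when single libraries were left out, which was chosen after seeing the data (2 when fl/fl S1 was dropped and 3 when fl/fl S4 was). Small log2 fold changes changed sign. Egln3 was 0.27 and Slc16a3 0.0895 both with age as a covariate and in 11-week-old mice. Without fl/fl S1 and S3, Hif1a was -0.39, Slc2a1 -0.13 and P4ha1 -0.23. Hif1a was -0.0370 with edgeR and -0.0452 with DESeq2. When single libraries were left out, Hif1a ranged from -0.14 (S3) to 0.21 (S5) and was below 0 also at -0.11 (S1), -0.02 (S8 and S12) and -0.03 (S9). Egln3 ranged from -0.37 (S3) to 0.26 (S5), with 0.000896 for S1, and Slc16a3 from -0.20 (S3) to 0.0403 (S5). P4ha1 ranged from -0.13 (S3) to 0.18 (S5), with -0.03 for S10. Ndrg1 ranged from -0.33 (S1) to 0.16 (S8), with 0.05 for S3 and 0.15 for S4. Where a value changed, the cause was not tested. No paired analysis was possible because the groups share no replicate numbers. At these depths a count of 0 for Adm was taken to allow up to 3 reads per library.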
